A study of Mus musculus with 5 samples.

Results

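The genes examined here encode the nuclear pore complex, and the question is where the germ cell zinc finger protein ZFP541 occupied them in spermatocytes. All 30 named genes were found among 21779 protein-coding genes of the mouse assembly GRCm38.p6, the assembly of mm10. They were chosen by name, with an earlier reading of these peak lists in view in which Nup210 ranked near the top, so the presence of strong peaks in the set is a description and was not tested. A peak was assigned to a gene when it overlapped the gene body or the 1 kb beyond either gene end.

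Chromatin was taken from pachytene and diplotene spermatocytes, the late cells of meiotic prophase, which were enriched by size sedimentation (STA-PUT) from testes of adult C57BL/6 mice. ChIP-seq, in which formaldehyde-fixed chromatin is pulled down with an antibody and sequenced, used a rabbit antibody raised against the N-terminal part of ZFP541. The groups used were wild type (genotype WT, replicates 1 and 2) and Zfp541-/- (1 library), each with the ZFP541 antibody; 2 wild-type input libraries (no antibody) belong to the series and were not analysed here. The labels do not say whether the replicates came from separate animals, nor how the knockout allele was made. The lists held 8236 and 10371 wild-type peaks and 256 knockout peaks, their read depth is unknown, and a gene without a peak is therefore not shown to be unbound. Peak lists do not measure expression, so the cell type could not be checked against markers. At Zfp541 itself the highest fold enrichments were 18.6 and 22.2 in the wild-type replicates, and the knockout had no peak.

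The nuclear pore complex is the channel through the nuclear envelope for proteins and RNA. Outer and inner rings form its scaffold, membrane proteins anchor it, proteins rich in phenylalanine-glycine repeats fill the channel, and filaments on the cytoplasmic side and a basket on the nuclear side receive cargo. In meiotic prophase the envelope also carries the attachment sites of chromosome ends.

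Peaks of both wild-type replicates overlapped at 10 of the 30 pore genes, and no pore gene had a knockout peak. The genes were Nup107, Seh1l and Ahctf1 of the outer ring, Nup205 of the inner ring, Nup98 of the channel, the membrane proteins Nup210 and Pom121, Rae1 of the cytoplasmic side, and Nup153 and Tpr of the basket. A joined interval of overlapping replicate peaks without a knockout peak is called a shared region. The members' share was 33.3%, and 23.9% of all protein-coding genes had a shared region under the same rule. Among the 11149 protein-coding genes between the shortest (11383 bp) and the longest (113537 bp) pore gene the share was 28.5%. The median length of those genes was 29301 bp and that of the pore genes 44710 bp, so lengths were not matched. Replicate 1 had a peak at 12 pore genes (40%), where 27.8% of all genes had one. Replicate 2 also had a peak at 12, where 32.6% of all genes had one. In the knockout 0.22% of all genes had a peak, so the count of 0 is near the background. The knockout list began at a −log10 p of 4.47 and the wild-type lists at 2.71 and 2.54, so weak peaks could be listed in the wild type alone. The nearest knockout peak to any pore gene lay 794699 bp from Rae1.

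**Figure D1:**
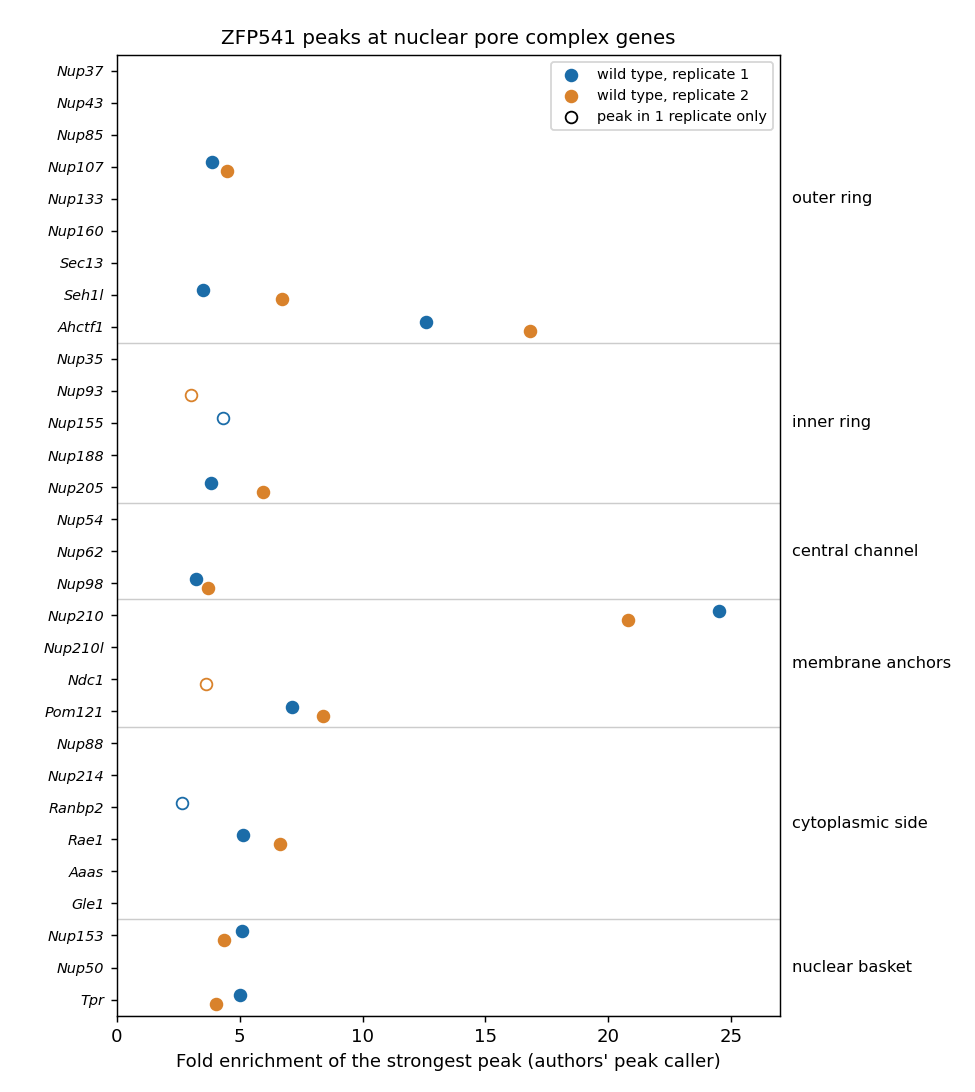
Fold enrichment of the strongest peak of each pore gene (x axis, ratio from the authors' peak caller) by place in the pore, for wild-type replicate 1 (blue) and replicate 2 (orange). Filled points mark the 10 genes with overlapping peaks in both replicates, open points the 4 genes with a peak in 1 replicate, and rows with no point the 16 genes without a wild-type peak; Nup210 and Ahctf1 stand to the right of all others.

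Promoter sequences, 250 bases before to 50 after a start listed by RefSeq (GRCm38.p6), are shown for 5 pore genes, with every CpG dinucleotide in capitals because CpG numbers in such windows are compared with occupancy further on. Of the genes with a shared region, Nup210 and Nup98 are those whose replicate 1 summit lay inside such a window, at base 210 and base 89 of the sequences printed. Ahctf1 and Pom121 were added after their values were seen, as the pore genes next in fold enrichment to Nup210. Nup50, also chosen after its values were seen, is shown as a CpG-rich start at which no library had a peak. For Nup98 the printed window holds 38 CpGs, and the later comparison used the window of its other start, which is nearer the summit and holds 31. The windows are chr6:91116777-91117076 (minus strand) for Nup210, chr7:102209818-102210117 (minus strand, the second of its listed starts) for Nup98, chr1:179803966-179804265 (minus strand) for Ahctf1, chr5:135394497-135394796 (minus strand) for Pom121 and chr15:84923178-84923477 (plus strand) for Nup50.
Nup210: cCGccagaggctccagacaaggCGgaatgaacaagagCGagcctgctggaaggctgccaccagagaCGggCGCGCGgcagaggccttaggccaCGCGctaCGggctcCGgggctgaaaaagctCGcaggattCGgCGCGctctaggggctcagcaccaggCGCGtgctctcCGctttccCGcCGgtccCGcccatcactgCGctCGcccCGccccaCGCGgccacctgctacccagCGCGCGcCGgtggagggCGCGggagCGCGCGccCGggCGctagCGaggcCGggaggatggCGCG
Nup98: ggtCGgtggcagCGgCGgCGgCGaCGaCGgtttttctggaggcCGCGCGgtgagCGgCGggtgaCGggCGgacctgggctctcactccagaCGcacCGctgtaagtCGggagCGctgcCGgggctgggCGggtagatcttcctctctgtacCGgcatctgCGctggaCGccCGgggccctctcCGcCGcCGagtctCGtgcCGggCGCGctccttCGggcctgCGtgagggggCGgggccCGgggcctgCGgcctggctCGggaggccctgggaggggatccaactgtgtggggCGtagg
Ahctf1: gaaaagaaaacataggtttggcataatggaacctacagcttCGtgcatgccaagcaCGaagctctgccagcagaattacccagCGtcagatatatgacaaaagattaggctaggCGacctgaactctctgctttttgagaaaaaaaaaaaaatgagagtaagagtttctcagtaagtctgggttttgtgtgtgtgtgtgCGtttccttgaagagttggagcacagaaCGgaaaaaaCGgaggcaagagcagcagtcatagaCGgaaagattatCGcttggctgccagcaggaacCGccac
Pom121: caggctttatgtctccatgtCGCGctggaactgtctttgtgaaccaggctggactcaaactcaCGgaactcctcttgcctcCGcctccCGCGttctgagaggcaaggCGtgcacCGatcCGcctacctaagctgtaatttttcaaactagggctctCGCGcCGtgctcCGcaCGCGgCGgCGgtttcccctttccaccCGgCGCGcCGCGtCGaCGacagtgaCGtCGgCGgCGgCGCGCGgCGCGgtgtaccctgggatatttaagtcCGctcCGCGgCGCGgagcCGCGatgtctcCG
Nup50: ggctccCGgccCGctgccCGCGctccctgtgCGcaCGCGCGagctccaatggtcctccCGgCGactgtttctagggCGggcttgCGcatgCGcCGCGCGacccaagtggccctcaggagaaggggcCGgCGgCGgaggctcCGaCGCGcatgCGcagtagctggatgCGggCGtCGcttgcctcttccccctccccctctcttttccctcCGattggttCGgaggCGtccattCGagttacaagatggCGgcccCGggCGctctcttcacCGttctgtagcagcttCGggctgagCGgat

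The membrane anchors held the strongest region of the set. Nup210, which encodes the pore's large membrane glycoprotein, had a shared region of 2620 bp at chromosome 6, 91115585 to 91118204, with fold enrichments of 24.5 in replicate 1 and 20.8 in replicate 2. The −log10 q values were 76.94 and 62.90. By the mean percentile of fold over the replicates it was 4th of the 5213 protein-coding genes with a shared region. The summits lay 41 bp before and 235 bp after the start, the first of them inside the sequence printed above. Replicate 1 had 5 separate peaks at this gene and replicate 2 had 2. The smaller replicate 1 peaks had folds of 4.64, 3.57, 2.86 and 3.21, and the smaller replicate 2 peak 3.71. In that order the −log10 q values were 3.92, 1.67, 0.44 and 1.01, and 2.85 in replicate 2. The lncRNA gene Gm30364 starts 395 bp from the Nup210 start and overlaps the region, so the signal cannot be given to Nup210 alone.

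Pom121, a membrane protein needed for pore assembly, had folds of 7.14 and 8.39 in a shared region of 1408 bp (chromosome 5, 135393724 to 135395131). Its summits lay 124 and 119 bp after the listed start, only 5 bp apart. Its replicate peaks differ in width, 468 and 1408 bp, and under a reciprocal overlap of 50% they did not count as shared. The replicate 1 summit is 10419 bp from the nearer gene end, since the gene bounds reach beyond that start, so the region counted as inside the gene and not at a gene end. Replicate 2 had a second peak 3891 bp before the start, with a fold of 3.02 and a −log10 q of 0.86. Ndc1, a membrane protein that holds the inner ring, had a peak in replicate 2 only, with a fold of 3.62, 112 bp after its start. Nup210l, the paralogue of Nup210, had no peak in any library, and the nearest wild-type peaks were 19380 and 19378 bp away.

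In the outer ring, Ahctf1 stood apart from the other genes. Ahctf1 encodes ELYS, the chromatin-binding subunit with which pore assembly begins. It had folds of 12.6 and 16.8 and −log10 q values of 31.45 and 45.66, in a region of 1613 bp at chromosome 1, 179802183 to 179803795. Among genes with a shared region it ranked 136th. Its region began 220 bp after the listed start and its summits lay 686 and 722 bp after it, so the signal was inside the gene and outside the promoter printed above. No other gene lay within 1 kb of that region. Replicate 2 had a further weak peak, of fold 3.02 and −log10 q 0.86, 2478 bp after the start.

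Nup107 and Seh1l, both subunits of the ring's Y-shaped scaffold, had weaker regions. Nup107 had folds of 3.85 and 4.48 (chromosome 10, 117792346 to 117792841), with summits 143 and 270 bp after the start. Seh1l had folds of 3.49 and 6.71 (chromosome 18, 67774576 to 67775486), the widest disagreement between replicates in the set, and its peaks too did not count as shared under the reciprocal overlap of 50%. The lncRNA gene Gm26910 overlaps the Seh1l region. The other 6 outer ring genes, Nup37, Nup43, Nup85, Nup133, Nup160 and Sec13, had no peak in any library.

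The inner ring had 1 gene with a shared region of 5. Nup205, a large scaffold protein, had folds of 3.83 and 5.94 (chromosome 6, 35177275 to 35178372), with summits 285 and 135 bp after the start. Nup155, a scaffold subunit, was marked in replicate 1 only, by a peak of fold 4.31, 219 bp before the listed start. Nup93, which binds the large ring subunits, was marked in replicate 2 only, by a peak of fold 3.02, 11930 bp after a start and within the gene. Nup35 and Nup188 had none.

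In the channel, Nup98 had the weakest shared region of the set. Its product carries phenylalanine-glycine repeats, and its precursor also yields an outer ring subunit. The folds were 3.21 and 3.69 and the −log10 q values 1.01 and 2.15 (chromosome 7, 102209744 to 102210242), so the replicate 1 peak did not pass a q-value of 0.05, and the region was also lost under the reciprocal overlap. The protein-coding gene Pgap2 runs the other way from a start 7 bp from a Nup98 start, and the region overlaps both. The channel genes Nup54 and Nup62 had no peak.

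On the cytoplasmic side, Rae1, an mRNA export factor that binds NUP98, had folds of 5.12 and 6.64 (chromosome 2, 172999957 to 173000841) and summits 191 and 237 bp after the start. Ranbp2, which encodes the protein of the cytoplasmic filaments, had a peak in replicate 1 only, with a fold of 2.66 and a −log10 q of 0.54. Nup88, Nup214, Aaas and Gle1 had none.

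Of the 3 basket genes, 2 had a shared region, with similar values. Nup153 had folds of 5.09 and 4.37 (chromosome 13, 46727367 to 46728106), with summits 92 and 180 bp after the start, and the lncRNA gene Gm46412 also spans its region. Tpr, which encodes the coiled-coil filaments of the basket, had folds of 5.0 and 4.04 (chromosome 1, 150392775 to 150393871), with summits 542 and 445 bp after the start. The start of the protein-coding gene Odr4 is 217 bp from that of Tpr, on the other strand, and the region overlaps both. Nup50, whose product works with NUP153 in import, had no peak, and its nearest wild-type peaks were 44078 and 41830 bp away.

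By mean percentile of fold, the pore genes other than Nup210, Ahctf1 and Pom121 had regions below the median of all genes with a region. Over the 10 genes the median folds were 5.04 in replicate 1 and 6.29 in replicate 2, and over all protein-coding genes with a shared region they were 5.71 and 6.38. The median of the mean percentile was 60.2 for the pore genes and 72.1 for all. A fold of at least 10 in both replicates was found at 2 of the 10 pore genes (20%) and at 9.69% of all genes with a shared region. The order by mean percentile was Nup210 (99.9), Ahctf1 (97.8), Pom121 (83.9), Rae1 (71.0), Nup153 (61.9), Tpr (58.5), Nup205 (55.3), Seh1l (52.2), Nup107 (48.8) and Nup98 (30.9). From Nup153 downward each gene's replicate percentiles overlapped those of the next gene, so that part of the order does not exceed the spread between replicates. Rae1 and Nup153 were barely separate, with percentiles of 63.9 and 78.1 against 63.8 and 60.1. The fold was higher in replicate 2 at 7 of the 10 pore genes and at 59.7% of all genes with a region, and the ratio of replicate 2 to replicate 1 ran from 0.809 at Tpr to 1.93 at Seh1l. Region widths ran from 496 to 2620 bp with a median of 1004 bp, against 1127 bp for all.

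Of the peaks assigned to pore genes, that of Nup155 lay farthest out, 14 bp beyond the gene bounds. The nearest peak outside the 1 kb limit was one of fold 4.03 in replicate 2, 2671 bp from Nup43. Next were peaks of fold 9.40 in replicate 2 and 7.0 in replicate 1, which lay 3863 and 3996 bp from Nup107 and were stronger than the peaks assigned to that gene.

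Within the shared regions the summits lay close to the start of transcription and mostly on its downstream side. All 9 pore genes with both a shared region and a listed start had their replicate 1 summit within 1 kb of it, against 85.4% of the 4216 such protein-coding genes. In 8 of these 9 both summits were downstream, the exception being replicate 1 at Nup210. At Nup98 this holds for the nearer listed start, with summits 137 and 111 bp after it. Both Nup98 summits lay before its other listed start. The Tpr summits, at bases 150393380 and 150393283, were also upstream of Odr4. That gene lies on the other strand and ends at base 150393080, so these summits cannot be given to the Tpr start alone. Among the 3600 genes with a summit within 1 kb of a start, both summits were downstream at 57.4%. The median replicate 1 summit was 143 bp downstream for pore genes and 93 bp for all, and the replicate summits of a region were a median of 67 bp apart for pore genes and 88 bp for all. By gene ends in place of listed starts, 9 pore genes (30%) had a shared region within 1 kb of an end, against 21% of all genes. Pom121 was the one left out. Nup210 was counted through the width of its region, since its replicate 1 summit lay 1455 bp from the nearer gene end.

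**Figure D2:**
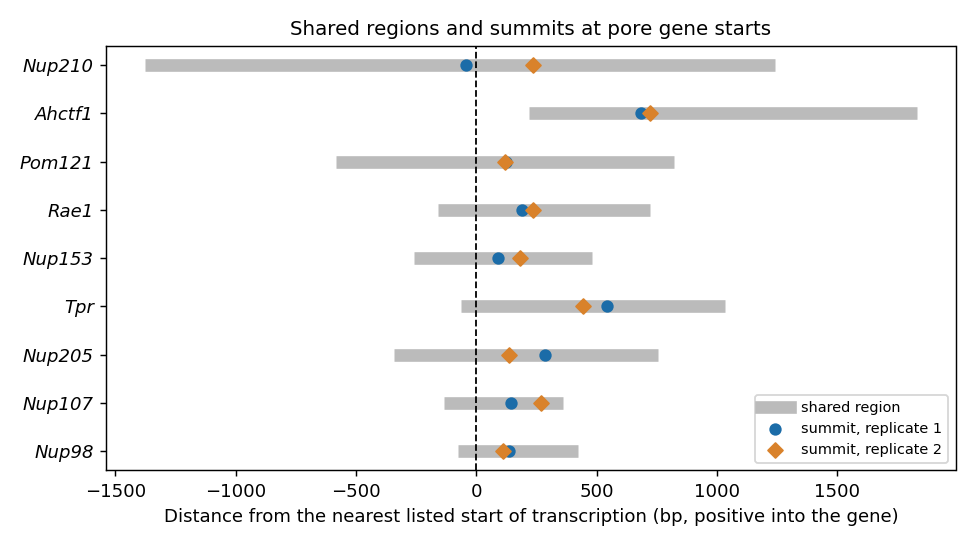
Shared regions (grey bars) and the summits of replicate 1 (blue circles) and replicate 2 (orange diamonds) at the 9 pore genes with a listed start, ordered by mean percentile of fold; the x axis is the distance from the nearest listed start in bp, positive into the gene. The Ahctf1 bar lies wholly to the right of the start, from 220 to 1832 bp, and the other bars cross it.

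At stricter thresholds fewer pore genes had a shared region. With peaks of a −log10 q of at least 5 in both replicates, 4 pore genes (13.3%) had a shared region, namely Nup210, Ahctf1, Pom121 and Rae1, against 13.7% of all genes. At a −log10 q of at least 10, Nup210, Ahctf1 and Pom121 remained (10%), against 7.89% of all genes. The pore genes' share was near the background at both stricter thresholds.

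**Figure D3:**
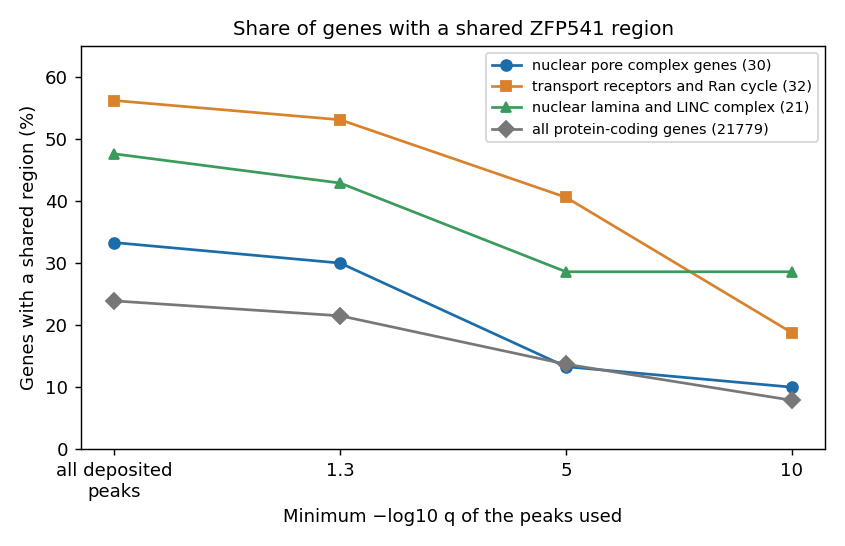
Share of genes with a shared region (y axis, percent) with all deposited peaks and with peaks of a minimum −log10 q of 1.3, 5 and 10 (x axis), for the 30 pore genes, 2 related gene lists and all protein-coding genes. The pore genes go from 33.3% to 10% and meet the line of all genes at a minimum of 5.

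By their medians, promoters of pore genes were rich in CpG whether or not they were occupied. Nup160, with 6 CpGs, and Ahctf1, with 10, lay below the median of 14 over all protein-coding genes. The table of promoter sequences held 25 of the 30 genes; Nup43, Nup85, Seh1l, Nup35 and Nup210l had no entry. The 300-base window held 10 to 45 CpGs (median 28) in the 9 genes with a shared region and 6 to 36 (median 26) in the 16 without, so the ranges overlapped. Over all protein-coding genes the medians were 28 with a shared region and 8 without. Among all genes the share with a region was 3.0% at 0 to 4 CpGs and 66.9% at 30 or more, and pore genes with 30 or more CpGs had a region in 4 of 9 cases. Those 4 were Nup210, Nup98, Pom121 and Nup153. Of the 24 pore genes with at least 10 CpGs, a minimum set after these values were seen, 9 (37.5%) had a shared region, against 38.2% of the 10097 protein-coding genes above the same minimum. The pore genes' share was near that of all genes above this minimum. Ahctf1 had the second highest fold, and its window held 10 CpGs, the fewest of the 9. Its shared region lay wholly outside that window, so the CpGs under the region were not counted. Nup50 had 36 CpGs, the most of the 16, and no peak.

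**Figure D4:**
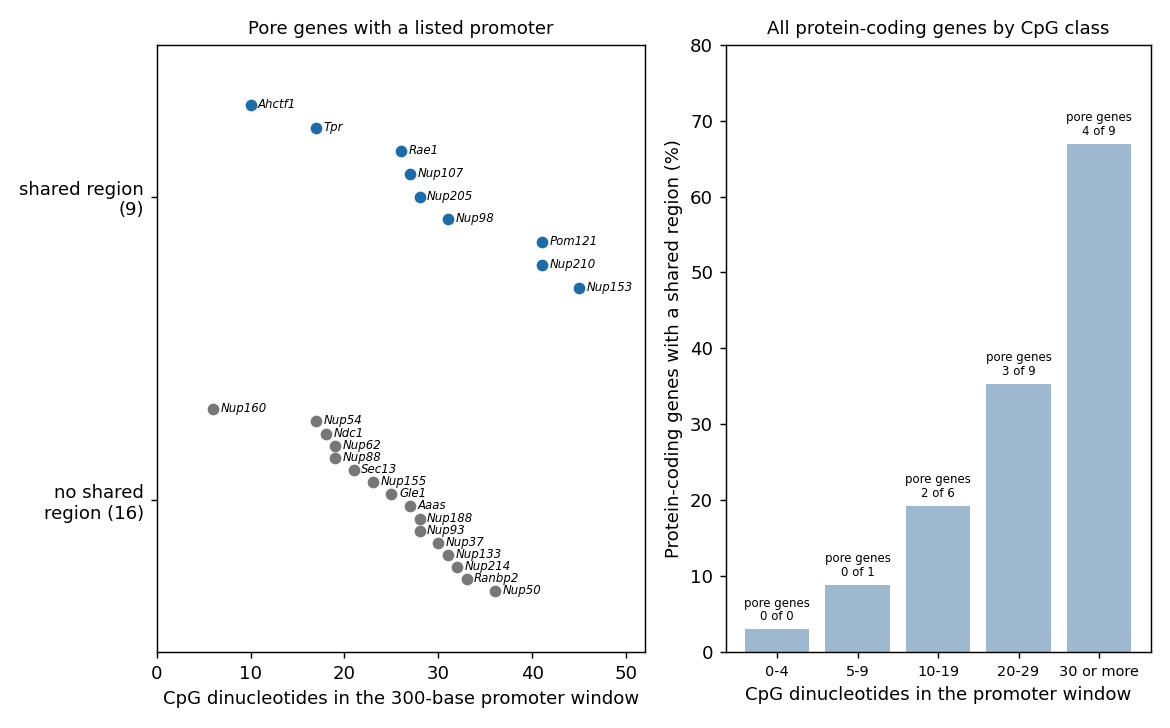
Left, CpG dinucleotides in the 300-base promoter window (x axis) of the 25 pore genes with a listed promoter, split by whether a shared region was found; points are spread vertically for legibility. Right, share of all protein-coding genes with a shared region (bars, percent) by CpG class, with the pore genes in each class written above; the bars go from 3.0% to 66.9%, and the pore genes of the highest class had a region in 4 of 9 cases.

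A set of 6 short motifs, chosen with the occupancy known, was searched on both strands of these windows, and none of them contains another. The GC box GGGCGG was found in 7 of 9 pore promoters with a shared region and in 10 of 16 without, against 74.0% of all protein-coding promoters with a shared region, 38.2% of those without and 46.8% of all. The core of cyclic AMP response elements, TGACG, was found in 6 of 9 and in 7 of 16, against 33.2%, 20.9% and 23.9% in the same order. For the ETS motif CCGGAAG the counts were 2 of 9 and 6 of 16, against 15.9%, 10.7% and 11.9%. For the CCAAT box CCAAT they were 2 of 9 and 7 of 16, against 35.8%, 39.8% and 38.9%. The NRF1 core GCATGCG was found in 1 of 9 and in 2 of 16, against 7.21%, 3.65% and 4.5%. The MYB motif CAGTTG was found in 1 of 9 and in 1 of 16, against 7.28%, 13.9% and 12.3%. These are matches of letters and say nothing of which factor binds there. Of the 9 windows compared, that of Nup210 alone held the replicate 1 summit, and the Ahctf1 window lies wholly outside its shared region. The counts therefore describe promoter windows and not the sequence under the summits.

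Other genes of the nuclear envelope were compared through lists of their own. Of the other pore genes, Nup58, Nup42 (Nupl1 and Nupl2 in the gene table) and Pom121l2, none had a shared region, and Pom121l2 had a peak in replicate 2 only. Among all protein-coding genes 23.9% had a shared region, the background for the 2 larger lists that follow. Import and export receptors and the Ran cycle, which gives transport its direction, had a shared region at 18 of 32 genes (56.2%). They were led by the importin alpha gene Kpna3 (folds 9.45 and 13.1), the tRNA exportin gene Xpot (8.57 and 12.1, beyond the end opposite its start), the Ran cofactor gene Ranbp1 (11.7 and 7.17) and the importin beta gene Kpnb1 (7.15 and 7.38). Genes of the nuclear lamina and of the LINC complex, which links the envelope to the cytoskeleton, had one at 10 of 21 (47.6%). The strongest there were the lamin B receptor gene Lbr (14.2 and 17.2), Sun2 (12.1 and 11.1), the lamin gene Lmnb1 (15.0 and 8.91) and Sun1 (8.21 and 14.1). The median folds over genes with a region were 5.64 and 6.42 in the transport list and 8.21 and 8.60 in the lamina list. Among those of at least 10 CpGs, 13 of 24 transport genes (54.2%) and 6 of 13 lamina and LINC genes (46.2%) had a shared region. The share of all protein-coding genes above that minimum was 38.2%. At a −log10 q of at least 10 the counts were 6 of 32 (18.8%) and 6 of 21 (28.6%), against 7.89% of all genes. Neither list was tested against the pore genes or against all genes, and neither had a knockout peak. Genes next to the regions of these lists were not looked up. A region here, such as that of Xpot, therefore cannot be given to the listed gene alone.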

How the data were processed

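Only the 3 deposited peak lists were used, 1 per ChIP library; no counts of reads were used, so depth is unknown. Per the file layout, the deposited columns give each peak's summit offset, its −log10 p and −log10 q, its fold enrichment, which is a ratio to the background the caller used, and a score that was 10 times the −log10 q without decimals at every peak. These are the authors' values and serve only to describe, rank or filter peaks. The submitters' processing notes name the mm10 build, MACS2 2.2.6, Bowtie2 2.3.5, cutadapt 2.6, deepTools 3.5.0, Picard and SAMtools 1.10. Settings, peak threshold and control of the calls: not given in the sources used here.

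Replicate peaks sharing at least 1 bp were joined, which gave 5457 regions, and regions with a knockout peak were removed, which left 5325. Percentiles are ranks of fold within a replicate's list. A gene's strongest region has the highest mean percentile. Genes came from RefSeq (GRCm38.p6), without exons; 108 protein-coding entries that start before 3 Mb of an autosome or X carry scaffold coordinates and were left out. Start sites and strand came from the RefSeq promoter table, which held 17492 of the protein-coding genes. For a gene with several starts, distances were taken from the start nearest the summit, and the promoter window of a gene with a shared region used that start. A gene without a shared region has no such summit, so its window came from a listed start chosen in another way.

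The members and lists were chosen with earlier results of these data known, and no test was run. Every member was named, and the 4 genes of each related list with the highest mean percentile. The joining step was run on simulated peaks and found 4900 of 4900 planted regions. Those peaks were of equal width and each planted pair overlapped by design. This checks the code, and not how peaks of varied width are joined. Python 3.11.15, numpy 2.4.6, pandas 2.3.3 and matplotlib 3.10.9 were used.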

Additional observations from a re-analysis of the deposited data

How the results depend on the processing

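The count of 10 pore genes with a shared region was 4 with a minimum −log10 q of 5 and 3 with 10. The count of 9 at a gene end was 3 and 2 under the same thresholds. With a minimum −log10 q of 1.3, and likewise with a minimum −log10 p of 4.47 (where the knockout list begins), Nup98 was lost and 9 remained. That was 30% of the pore genes, against 21.5% and 21% of all genes. Under a reciprocal overlap of 50%, Pom121, Nup98 and Seh1l were lost and 7 remained (23.3%), against 17.5% of all genes. With 1 replicate alone the count was 12 either way: replicate 1 added Nup155 and Ranbp2, and replicate 2 added Nup93 and Ndc1. The count at gene ends was then 11 and 10. Windows of 500 bp and 2 kb, keeping regions with a knockout peak, and requiring the summit in the window left the 10 genes as they were. With the summit required, 8 counted at a gene end, and Nup210 was the one lost there. The knockout count was 0 with all 3 windows. The share of all genes with a shared region moved with these settings too, from 7.89% to 32.6%. At gene ends the share of all genes was 21% under the main rule and is not given for the other settings. The gene-end counts above therefore have no background beside them under those settings. The comparisons with genes inside the pore genes' length range and with genes above a CpG minimum were chosen after seeing the data. Unknown depth, 1 knockout library and 2 wild-type libraries limit all of this: a missing peak may be a matter of depth, and a knockout peak too weak for its list would not be seen.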
